A study of Homo sapiens with 6 samples.

Results

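The genes of the TEAD transcription factors and of the proteins that bind them, VGLL1, VGLL3, VGLL4, TEAD1, TEAD2, TEAD3, TEAD4, YAP1 and WWTR1 (the gene of TAZ), were followed in HuCCT1, a human intrahepatic cholangiocarcinoma (iCCA) cell line. They are 9 of the 20811 genes of the table and were matched by gene symbol. The set was chosen by values of this same comparison, in which the difference of VGLL1 stood out, so the values of the 9 genes are given as a description and without a test. Transcripts were measured in 3 libraries of HuCCT1 cells transduced with human THY1-CMV-GFP (HuCCT1/CD90+) and in 3 libraries of HuCCT1 cells transduced with Lenti-CMV-GFP-2A-Puro-Blank (HuCCT1/CD90−). THY1 is the gene of CD90, and both lines carried a GFP lentivirus. The labels do not say whether a line is a clone or a pool, or whether its 3 libraries come from separate cultures, so errors and p-values measure only the spread between these libraries. The comparison addresses which transcripts differ between an iCCA line with raised CD90 and its control line. As each state is a single line, an effect of CD90 cannot be told apart from other differences between the lines.

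TEAD proteins bind DNA but activate transcription poorly on their own. The coactivators YAP and TAZ bind them and switch on genes of growth, adhesion and matrix. In the Hippo cascade the kinases MST1 and MST2 (STK4 and STK3) activate LATS1 and LATS2, which phosphorylate YAP and TAZ and so keep them out of the nucleus, which makes the pathway a sensor of cell density and cell contact in epithelia, including the bile ducts. Vestigial-like (VGLL) proteins occupy the same surface of TEAD as YAP and TAZ. VGLL4 is known as a competitor that represses TEAD targets, while VGLL1, a gene of placental trophoblast and of some carcinomas, and VGLL3 are cofactors with a single TEAD-binding motif. Transcript levels do not show the phosphorylation or location of these proteins.

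Each gene was read from 1 amplicon, and values are RPM, the reads of a gene scaled to the total of its library. In bulk RNA, fewer cells with a transcript and less of it per cell cannot be told apart. The libraries held 8587634 to 10551516 reads on genes, so that 3 reads, the floor used here, correspond to 0.284 to 0.349 RPM. Floors cover counting error only, since reads were amplified without molecular identifiers. THY1 had at most 1 read in a HuCCT1/CD90− library and 435 to 680 reads in HuCCT1/CD90+, a difference of 5.79 in log2(RPM + 1) (standard error 0.19, adjusted p = 0.00045 from limma). A gene is called where its limma p, adjusted by Benjamini-Hochberg across the whole table, is 0.05 or lower and its fold change on the log2(RPM + 1) scale is 1.5 or more. This held for 15.1% of all genes, 7.59% as higher and 7.49% as lower in HuCCT1/CD90+. The biliary keratins KRT7 and KRT19 were between 3042 and 4291 RPM in all 6 libraries. ALB, TTR and the leukocyte gene PTPRC had at most 1 read in any library. Of 7 fibroblast markers 5 were called lower in HuCCT1/CD90+, where they summed to 20.4 to 24.7 RPM against 41.8 to 65.3 RPM. Of 5 endothelial markers 1 was called lower, with sums of 1.29 to 1.86 against 14.9 to 23.4 RPM. Of 6 hepatocyte markers 2 were called lower, with sums of 0.217 to 0.751 against 3.69 to 5.89 RPM. Of 5 leukocyte markers 1 was called in each direction, with sums of 84.7 to 102 RPM in HuCCT1/CD90+ against 61.3 to 66.4 RPM. When limma was blocked on replicate number (the replicate block), 2 fibroblast, 1 endothelial and 1 hepatocyte marker were called lower, and 1 leukocyte marker was called higher and none lower. The part of these marker differences in the results below was not tested.

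Among the VGLL genes the lines differed in which member had the highest level, VGLL4 in HuCCT1/CD90− and VGLL1 in HuCCT1/CD90+. For VGLL1 the HuCCT1/CD90− libraries held 2, 0 and 2 reads. The HuCCT1/CD90+ libraries held 1508, 1326 and 1408, which is 162, 154 and 153 RPM. The HuCCT1/CD90+ mean was 156 ± 4.73 RPM (SD, n = 3), and as the HuCCT1/CD90− libraries were all under the floor of 3 reads the level was at least 487-fold higher. VGLL1 thus went from under the floor to a level whose coefficient of variation in HuCCT1/CD90+, 3.03%, was the lowest among the 9 genes there. VGLL4 was at 39.9, 43.0 and 38.2 RPM in HuCCT1/CD90− (mean 40.4 ± 2.43) and at 18.1, 17.1 and 16.3 RPM in HuCCT1/CD90+ (mean 17.2 ± 0.922). Its difference in log2(RPM + 1) was -1.19 (standard error 0.061), and the highest HuCCT1/CD90+ library lay far under the lowest HuCCT1/CD90− library. VGLL3 was weakly transcribed, with 1.52, 2.14 and 4.46 RPM in HuCCT1/CD90− (mean 2.71 ± 1.55) and 9.005, 8.27 and 12.2 RPM in HuCCT1/CD90+ (mean 9.81 ± 2.06). The difference in log2(RPM + 1) was 1.61 (standard error 0.35), the groups did not overlap, and the HuCCT1/CD90− libraries rest on 16, 20 and 46 reads. VGLL2, which is not among the 9 genes, had no read in any library. FAM181A and FAM181B, further genes of TEAD-binding proteins, had at most 1 read.

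**Figure D1:**
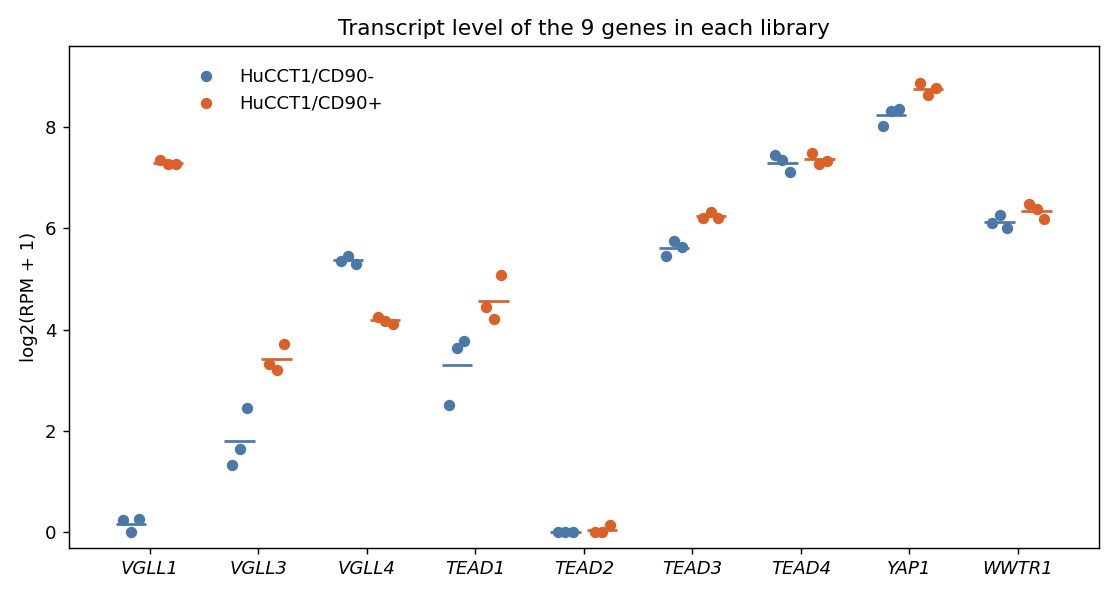
Transcript level of the 9 genes in each library, as log2(RPM + 1) on the vertical axis, with 1 point per library, HuCCT1/CD90− in blue and HuCCT1/CD90+ in orange, and a bar at the mean of each line. VGLL1 sits at the floor in HuCCT1/CD90− and near TEAD4 in HuCCT1/CD90+, VGLL4 is the gene that is lower in HuCCT1/CD90+ with no overlap, and TEAD4 and WWTR1 overlap between the lines.

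Summed over VGLL1, VGLL3 and VGLL4, the RPM was 43.2 ± 1.80 in HuCCT1/CD90− and 183 ± 4.84 in HuCCT1/CD90+ (SD, n = 3 each), 4.24 times as high. VGLL4 held 93.4% ± 3.73 of this sum in HuCCT1/CD90− and 9.37% ± 0.335 in HuCCT1/CD90+. VGLL1 held 0.303% ± 0.262 and 85.3% ± 0.844. The share of VGLL3 was 6.26% ± 3.63 and 5.36% ± 1.17, so its level and the sum were higher together. Amplicons differ in how well they amplify, so sums and shares of reads, and their change between lines, are not those of molecules. The difference of a single gene does not depend on this.

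The promoter of VGLL1 is shown because it is the member that differed most, beside those of ANKRD1 and CCN2 (CTGF), 2 known YAP/TAZ-TEAD targets that differed in opposite directions in these cells, as described further on. Sequences are from RefSeq on GRCh38.p14, from 250 bases before to 50 bases after the transcript start, on the strand of the gene. Capitals mark the core TEAD motif GGAATG, or its reverse complement CATTCC. VGLL1 lies at chrX:136531965-136532264 (plus strand), ANKRD1 at chr10:90921038-90921337 (minus strand) and CCN2 at chr6:131951323-131951622 (minus strand).
VGLL1: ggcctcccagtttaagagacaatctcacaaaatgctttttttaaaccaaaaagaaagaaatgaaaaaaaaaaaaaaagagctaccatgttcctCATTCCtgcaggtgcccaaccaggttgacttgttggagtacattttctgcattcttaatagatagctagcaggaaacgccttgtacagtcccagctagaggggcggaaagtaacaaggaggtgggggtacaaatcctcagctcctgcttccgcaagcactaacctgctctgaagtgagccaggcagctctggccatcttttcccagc
ANKRD1: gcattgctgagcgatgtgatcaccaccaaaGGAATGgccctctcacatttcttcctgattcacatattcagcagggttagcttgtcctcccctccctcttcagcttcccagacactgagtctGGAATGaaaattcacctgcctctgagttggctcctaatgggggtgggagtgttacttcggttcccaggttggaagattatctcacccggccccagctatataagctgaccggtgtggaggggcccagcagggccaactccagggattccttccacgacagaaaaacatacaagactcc
CCN2: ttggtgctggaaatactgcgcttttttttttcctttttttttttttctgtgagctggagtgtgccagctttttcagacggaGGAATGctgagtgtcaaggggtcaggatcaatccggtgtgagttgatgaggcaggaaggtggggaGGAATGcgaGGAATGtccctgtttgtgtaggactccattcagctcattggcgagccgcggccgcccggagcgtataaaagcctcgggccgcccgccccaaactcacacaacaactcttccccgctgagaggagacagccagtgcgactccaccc
The motif starts 157 bases before the start of VGLL1, 220 and 128 bases before that of ANKRD1, and 169, 104 and 95 bases before that of CCN2. Over all 35116 promoter windows of this length, 14.03% held the motif on either strand. Of the 9 genes 7 had a window, and 2 of their 13 windows held the motif, those of VGLL1 and YAP1. Of 18 windows of 16 target genes 9 held it, in a list drawn from genes that TEAD is known to regulate. A match of 6 letters is a description of the sequence and not evidence of binding in these cells.

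Of the 4 TEAD genes, 3 were transcribed. TEAD4, the member best known from trophectoderm, was the highest of them, at 172, 161 and 137 RPM in HuCCT1/CD90− (mean 157 ± 18.1) and 178, 154 and 160.5 RPM in HuCCT1/CD90+ (mean 164 ± 12.4). The lines overlapped, and the difference in log2(RPM + 1) was 0.067 (standard error 0.11, 95% interval from -0.23 to 0.36). TEAD3 was at 42.7, 52.9 and 48.8 RPM in HuCCT1/CD90− (mean 48.1 ± 5.09) and at 72.4, 79.3 and 72.4 RPM in HuCCT1/CD90+. Its lines did not overlap, with a difference of 0.63 in log2(RPM + 1) (standard error 0.093). TEAD1, the broadly expressed member, was at 4.74, 11.4 and 12.7 RPM in HuCCT1/CD90− (mean 9.63 ± 4.28) and at 20.8, 17.5 and 32.7 RPM in HuCCT1/CD90+ (mean 23.6 ± 7.99). Its lines did not overlap either, but the spread within each line was wide, and the difference of 1.26 (standard error 0.45) was 0.87 without HuCCT1/CD90− replicate 1, the lowest library. TEAD2, an embryonic member, had 1 read in HuCCT1/CD90+ replicate 3 and none elsewhere, so it was under the floor in both lines.

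The summed TEAD level was 215 ± 14.2 RPM in HuCCT1/CD90− libraries. In HuCCT1/CD90+ it was 262 ± 10.6 RPM (SD, n = 3 each), 1.22 times as high. TEAD4 held 73.0% ± 4.87 of it in HuCCT1/CD90− and 62.5% ± 2.77 in HuCCT1/CD90+. TEAD3 went from 22.5% ± 2.70 to 28.5% ± 2.72 and TEAD1 from 4.54% ± 2.17 to 8.98% ± 2.89 of the sum. The shares of TEAD4 ranged from 69.0% to 78.4% and from 60.4% to 65.6% in the libraries of the 2 lines and did not overlap. Set against this small change in the TEAD sum, the ratio of VGLL1 to summed TEAD RPM was at most 0.000977 in a HuCCT1/CD90− library and 0.575 to 0.616 in the HuCCT1/CD90+ libraries.

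**Figure D2:**
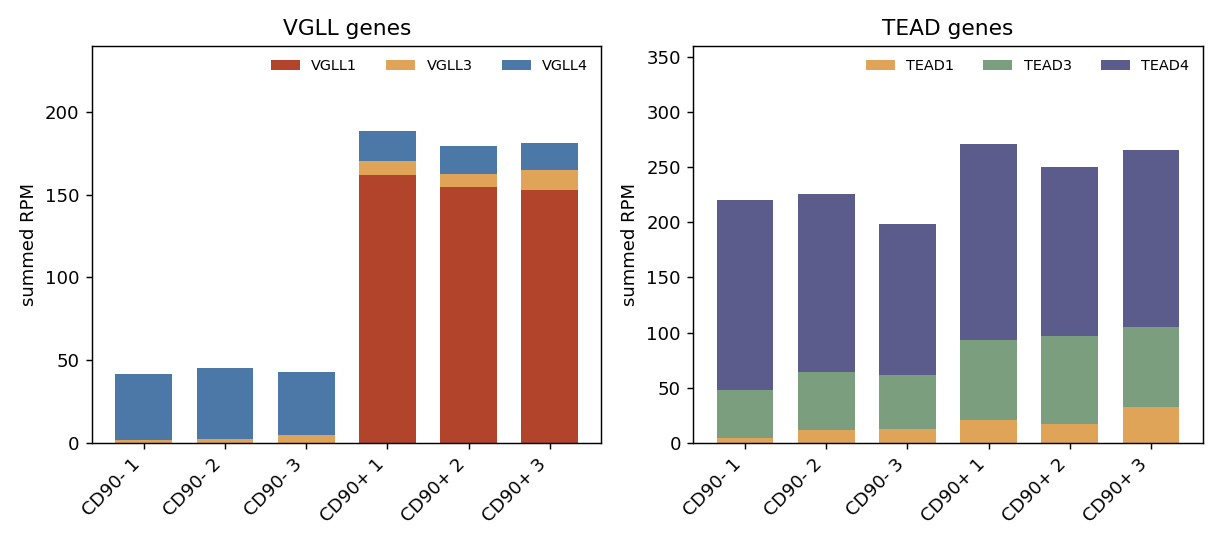
Summed RPM of the VGLL genes (left) and of the TEAD genes (right) in each library, stacked by gene. In HuCCT1/CD90− the VGLL bar is mostly VGLL4 and in HuCCT1/CD90+ mostly VGLL1, while TEAD4 is the largest part of the TEAD bar in each of the 6 libraries.

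YAP1, the gene of the coactivator YAP, was at 257, 319.5 and 327 RPM in HuCCT1/CD90− (mean 301 ± 38.4) and at 463, 396 and 436 RPM in HuCCT1/CD90+ (mean 431 ± 34.1). The groups did not overlap, and the difference in log2(RPM + 1) was 0.52 (standard error 0.12), short of a fold change of 1.5. WWTR1, the gene of TAZ, was at 67.6, 76.2 and 63.1 RPM in HuCCT1/CD90− (mean 68.9 ± 6.67) and at 88.7, 82.6 and 71.7 RPM in HuCCT1/CD90+. Its groups overlapped, since HuCCT1/CD90+ replicate 3 was below HuCCT1/CD90− replicate 2, and the difference was 0.23 (standard error 0.11). The RPM of YAP1 and WWTR1 together was 370 ± 39.5 in HuCCT1/CD90− and 512 ± 37.2 in HuCCT1/CD90+, and YAP1 made up 81.3% ± 2.37 and 84.2% ± 1.58 of it. Because VGLL4 was lower and YAP1 higher, the ratio of the coactivator sum to VGLL4, a competitor for TEAD, differed between the lines. It was 8.14, 9.20 and 10.2 in HuCCT1/CD90− and 30.5, 27.9 and 31.2 in HuCCT1/CD90+, 3.25 times as high on average. Against the sum of VGLL1, VGLL3 and VGLL4 the coactivators were relatively lower in HuCCT1/CD90+. That sum was 4.24 times as high there, and the coactivator sum 1.38 times. These ratios compare reads of different amplicons and not molecules.

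In HuCCT1/CD90− the order of the levels was YAP1, TEAD4, WWTR1, TEAD3, VGLL4, TEAD1, VGLL3, VGLL1 and TEAD2, where TEAD3 and VGLL4 overlapped in their libraries and the last 2 were under the floor. In HuCCT1/CD90+ it was YAP1, TEAD4, VGLL1, WWTR1, TEAD3, TEAD1, VGLL4, VGLL3 and TEAD2. There VGLL1 overlapped with TEAD4, WWTR1 with TEAD3, and TEAD1 with VGLL4. VGLL1 moved from rank 8 to rank 3 and VGLL4 from rank 5 to rank 7. These orders rest on 1 amplicon per gene, so they compare reads and not molecules.

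Of the 9 genes, 6 had no overlap between the lines, 5 higher and 1 lower in HuCCT1/CD90+, against 35% of all genes of the table with no overlap. As the set was chosen from this contrast, nothing is read from this count. With 1 library left out at a time, the difference in log2(RPM + 1) lay between 1.37 and 1.93 for VGLL3, 0.55 and 0.70 for TEAD3, and -1.22 and -1.14 for VGLL4.

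VGLL3 and TEAD1 also varied within the lines. Both had their highest value in replicate 3 of HuCCT1/CD90− and of HuCCT1/CD90+, and both their lowest value in HuCCT1/CD90− replicate 1. Of the 14098 genes with more than 3 reads in a library, 13.3% were highest in replicate 3 of both lines. With 2 of the 8 members above the floor in that state, nothing particular to them is read from it.

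Each of the 9 genes was also set beside its 50 closest neighbours on the chromosome, in the order of RefSeq GRCh38.p14, taking genes whose mean reached 10 RPM. For VGLL1, on chromosome X, the median difference of these neighbours in log2(RPM + 1) was 0.038, and 26 of the 50 were higher. The transcribed genes right beside it had negative differences, -0.68 for HTATSF1 (adjusted p = 0.035, limma) and -0.50 for RBMX (adjusted p = 0.0026, at a fold change under 1.5). For VGLL4 and VGLL3, both on chromosome 3, the neighbour medians were -0.12 and 0.18. TEAD3 on chromosome 6 was higher while its neighbours had a median of -0.14. TEAD1 and YAP1, both on chromosome 11, had neighbour medians of 0.35 and 0.22, with 39 of 50 neighbours higher in each case. WWTR1 on chromosome 3 had a neighbour median of 0.63, with 44 of 50 higher, above its own difference. With the neighbour median removed the difference was -0.39 for WWTR1, 0.30 for YAP1 and 0.93 for TEAD1. The part of chromosome position in the differences of TEAD1, YAP1 and WWTR1 was not tested.

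**Figure D3:**
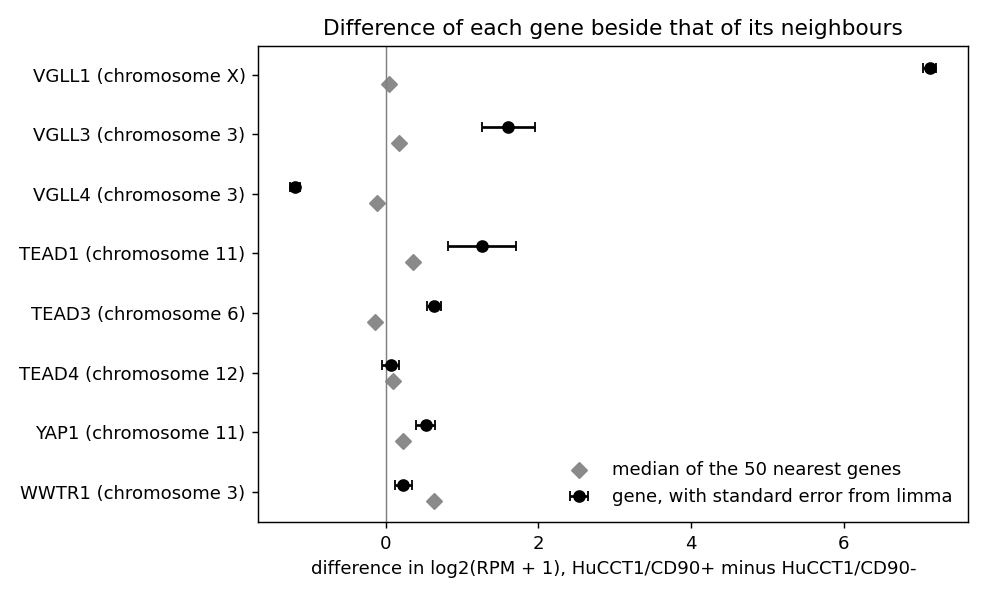
Difference in log2(RPM + 1) between HuCCT1/CD90+ and HuCCT1/CD90− for 8 genes (black circles, bars 1 standard error from limma) beside the median difference of their 50 nearest transcribed genes (grey diamonds). TEAD2 is left out as it was under the floor. VGLL1 lies at 7.13 beside a neighbour median of 0.038, and WWTR1, at 0.23, lies under its neighbours' median of 0.63.

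The genes whose values lay nearest to those of VGLL1 were sought among the 8793 genes whose mean reached 10 RPM, by Euclidean distance of log2(RPM + 1) over the 6 libraries. Among the 5 nearest were ARHGAP8 (distance 0.66), MAOA (1.85), RAB25 (1.89) and AP1M2 (1.97). On average RAB25, a small GTPase of epithelial cells, was at 1.19 RPM without and 111 RPM with CD90. The value of ARHGAP8 is uncertain, as a read-through transcript shares its sequence. Nearest to VGLL4, the member with the largest negative difference, were SFMBT2 (0.28), FHL3 (0.36), MDN1 (0.40), CCDC106 (0.43) and CUEDC2 (0.43). SFMBT2 went from 40.5 to 17.5 RPM. With 6 libraries in 2 lines such likeness mostly reflects the difference between the lines.

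The pathway above the 9 genes was followed with 42 genes of Hippo signalling. Of these 10 were called higher and 2 lower in HuCCT1/CD90+, and all 42 had more than 3 reads in a library. Among genes with that many reads, 22.3% were called. The median difference was 0.32 in log2(RPM + 1), against -0.0087 over those genes. Of 15 core kinases and their adaptors 1 was called. SAV1, the scaffold that holds the MST kinases, rose from 28.8, 41.9 and 37.3 RPM to 202, 190.4 and 195 RPM, a difference of 2.43 (standard error 0.15, adjusted p = 0.0018, limma). The LATS and MST kinase genes did not meet the call. LATS1 had a difference of -0.44 (adjusted p = 0.043 in limma, at a fold change under 1.5), LATS2 of -0.069 (95% interval from -0.39 to 0.25) and STK4 of -0.19. STK3 was at 7.27 ± 0.378 and 14.7 ± 4.23 RPM (adjusted p = 0.065 in limma, 0.0015 in edgeR and 0.00066 in DESeq2). MAP4K3 and MOB1B, named after their values were seen, also depended on the method, at differences of 1.56 and 0.82. Their adjusted p-values were 0.066 and 0.088 in limma, 2.9e-05 and 0.0023 in edgeR, and 6.4e-09 and 0.00077 in DESeq2.

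Of 17 upstream and junction regulators 8 were called higher and 2 lower. CRB3, an apical polarity protein that recruits Hippo components to the membrane, rose from 2.39 ± 0.368 to 80.8 ± 5.97 RPM (adjusted p = 0.00030, limma). INADL, the gene of its partner PATJ, rose from 4.70 ± 0.888 to 77.2 ± 9.42 RPM (adjusted p = 0.00073). AMOTL2, an angiomotin that holds YAP at junctions and is itself a YAP target, rose from 138 ± 23.4 to 245 ± 10.0 RPM (adjusted p = 0.019). Of its 50 neighbours 45 were higher, with a median difference of 0.46, and with that removed its difference was 0.38 (adjusted p = 0.14, limma). Its call was also lost without any 1 HuCCT1/CD90+ library or without HuCCT1/CD90− replicate 3 (adjusted p = 0.066 to 0.074). AMOT had 1 read in each HuCCT1/CD90− library and was at least 5.47-fold higher (adjusted p = 0.038, or 0.097 with the replicate block), a call that held in 1 of the 6 fits without a library, the one without HuCCT1/CD90+ replicate 1. The 2 genes called lower were PTPN14, from 151 ± 4.55 to 88.1 ± 2.14 RPM (adjusted p = 0.00070), and WWC3, from 58.6 ± 5.07 to 27.99 ± 2.28 RPM (adjusted p = 0.0043), which was named after its value was seen. NF2, the gene of merlin, had a difference of -0.31 (adjusted p = 0.23). Of 10 genes of proteins that restrain the Hippo kinases 1 was called, LIMD1, which rose by 0.71 (adjusted p = 0.019). Its adjusted p was 0.053 to 0.074 without HuCCT1/CD90+ replicate 3 or any 1 HuCCT1/CD90− library.

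The output was followed with a list of 22 YAP/TAZ-TEAD target genes, some of which (AMOTL2, LATS2 and PTPN14) also stand in the lists above. Of the 22, 9 were called higher and 5 lower in HuCCT1/CD90+, and 21 had more than 3 reads in a library, the set of genes in which 22.3% were called. The median difference was 0.48 in log2(RPM + 1). The list thus moved in both directions. ANKRD1, a nuclear ankyrin repeat protein and a sensitive YAP target, was at 3.79, 4.39 and 7.18 RPM in HuCCT1/CD90− and rose to 19.2, 21.3 and 34.5 RPM in HuCCT1/CD90+, a difference of 2.08 (standard error 0.33, adjusted p = 0.019, limma). CYR61 (CCN1), a matricellular protein, rose from 330.5 ± 16.2 to 625 ± 26.0 RPM (adjusted p = 0.0014). Its relative CTGF (CCN2) fell from 45.5, 53.9 and 43.7 RPM to 27.4, 18.6 and 17.0 RPM, a difference of -1.17 (standard error 0.21, adjusted p = 0.027, or 0.090 with the replicate block). CTGF lies among genes of chromosome 6 with a median difference of -0.48, and with that removed its adjusted p was 0.11 (limma). Of the fits without a library, the one without HuCCT1/CD90+ replicate 1 kept its call, and the others gave adjusted p-values of 0.078 to 0.090. The other genes called lower were TGFB2, RBMS3, PTPN14 and IGFBP3, the last named after its value was seen. TGFB2, a TGF-β ligand, fell by 1.53 on the log2(RPM + 1) scale and RBMS3, an RNA-binding protein, by 1.54 (adjusted p = 0.010 and 0.0076). IGFBP3, which binds insulin-like growth factors, fell from 733 ± 69.3 to 349 ± 33.6 RPM (adjusted p = 0.0062).

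Under the replicate block 4 target genes were called higher and 1 lower, in place of 9 and 5. ANKRD1, AMOTL2, CYR61, F3 and PTPN14 stayed called, F3 being named after its value was seen. With the neighbour median removed AMOTL2 lost the call, as given above, and PTPN14, at -0.50, was under a fold change of 1.5. Under the block TGFB2, RBMS3, CTGF and IGFBP3 were no longer called, with adjusted p-values of 0.076, 0.055, 0.090 and 0.055 (limma). Leaving out 1 library gave 6 to 9 target calls, with 4 called higher in 5 of these fits and 2 without HuCCT1/CD90+ replicate 2. ANKRD1 missed the threshold without HuCCT1/CD90+ replicate 2, HuCCT1/CD90− replicate 1 or HuCCT1/CD90− replicate 2 (adjusted p = 0.061, 0.059 and 0.070, limma), at differences of 1.92 to 2.17. The Hippo genes gave 10 calls under the block and 8 to 11 without a library, with 6 called higher in place of 10 without HuCCT1/CD90+ replicate 3.

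**Figure D4:**
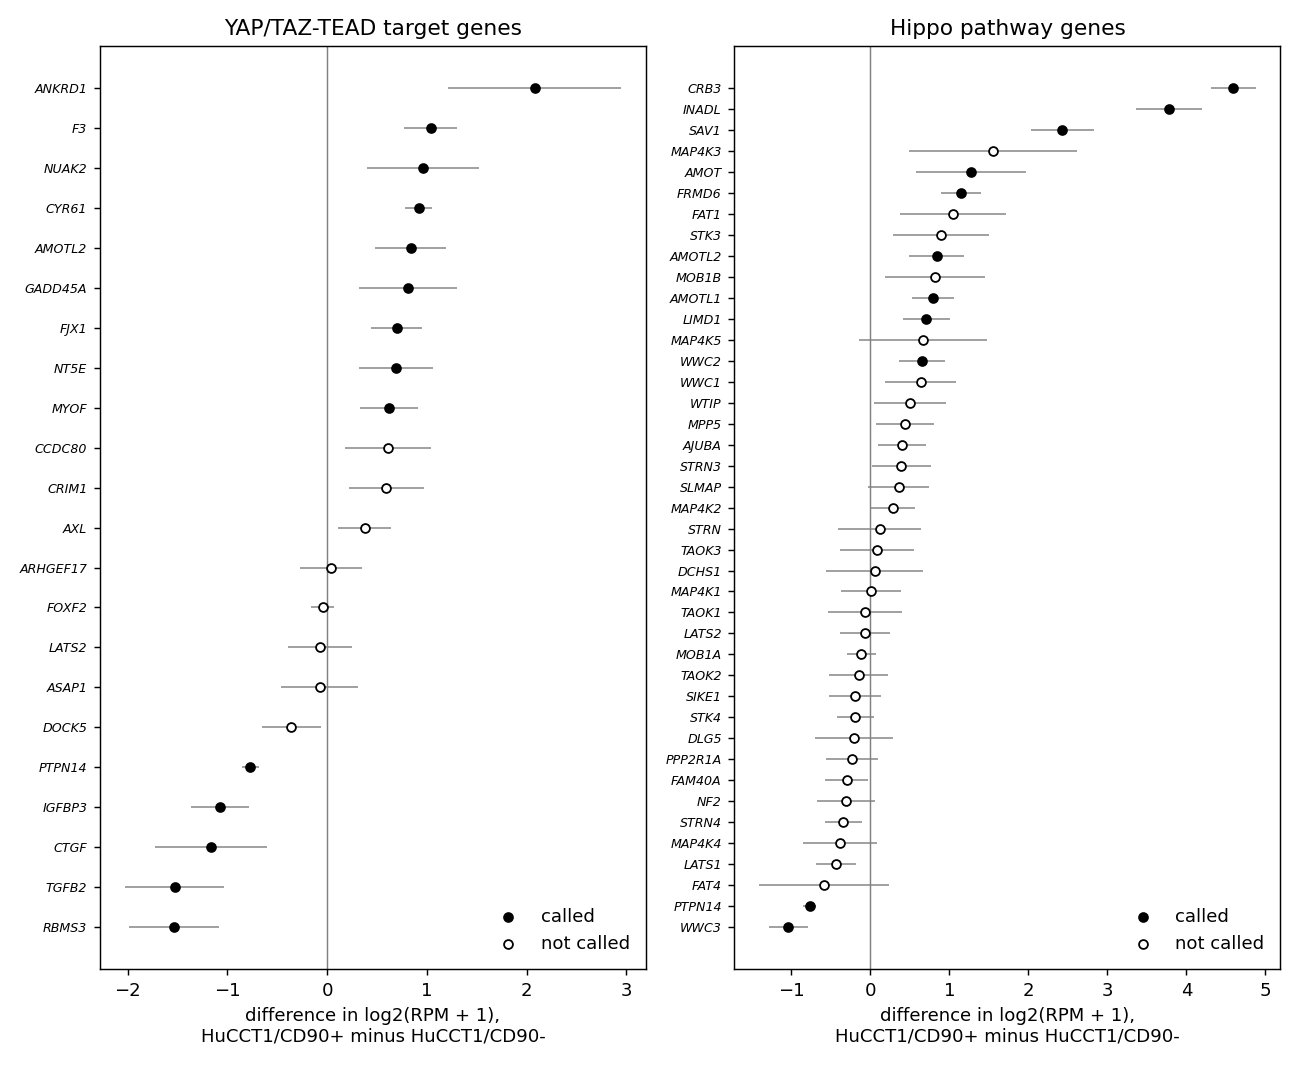
Difference in log2(RPM + 1) between HuCCT1/CD90+ and HuCCT1/CD90− for 22 YAP/TAZ-TEAD target genes (left) and for the Hippo pathway genes (right, with 1 of the 42 not drawn), with 95% intervals from limma as bars and called genes filled. The target genes extend to both sides of 0, from -1.54 for RBMS3 to 2.08 for ANKRD1, and CRB3, INADL and SAV1 lead the Hippo genes.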

How the data were processed

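Total RNA of 6 libraries was amplified by the authors with the Ion AmpliSeq Transcriptome Human Gene Expression panel, run on the Ion GeneStudio S5 Prime, with counts from the ampliSeqRNA plugin. The authors deposited RPM values for 20811 genes, 1 amplicon each. The submitters' processing notes name the build hg19 and the Transcriptome Analysis Console. The positions of the amplicons were not used here, so an isoform without the amplicon would be missed. Whole reads were recovered from the RPM values of each library for 100% of the values (tolerance 0.1 read). All pairs of libraries of a line differed by more than sampling noise (chi-square per degree of freedom of at least 9.66).

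Differences were tested with limma 3.58.1 in R 4.3.3 on log2(RPM + 1) over all genes without a filter, a scale that understates changes of weak genes. The study's methods name limma's eBayes. edgeR 4.0.16 (quasi-likelihood, TMM, filterByExpr, 12070 genes) and DESeq2 1.42.0 were run on recovered reads. Scripts were tested on simulated data, where limma called 114 of 200 genes changed 4-fold (57%), with 4 false calls. A gene that is not called may therefore still differ. The deviations of libraries with the same replicate number correlated with r = 0.21, 0.32 and 0.18, and those of the other pairs with -0.29 to 0.07, so limma was also fitted with a replicate block. This pairing rests on the data alone. The members, gene lists and tests were chosen with earlier results of these data known. Named are the 9 genes, THY1, up to 4 called genes per list by size of difference, pathway genes set beside a member, and the 5 nearest profiles of the members with the largest positive and negative difference. Some genes that this rule names are not reported here. Neighbours were found for 19816 genes by symbol.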

Additional observations from a re-analysis of the deposited data

How the results depend on the processing

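The alternatives were offsets of 0.1 and 5 RPM, means of at least 1 or 10 RPM, quantile normalization, median centring, trend and robust eBayes, the replicate block, edgeR, DESeq2, removal of the neighbour median, a minimum fold change of 2 and each library left out. The count of all called genes, 3138, was 1874 at a fold change of 2 and 1868 to 2414 without a library (1868 without HuCCT1/CD90+ replicate 3, 2083 without HuCCT1/CD90− replicate 3). It was 2102 with the replicate block, 4236 with DESeq2, 4200 with edgeR, 4360 with trend and robust eBayes, 4011 when restricted to means of 1 RPM or more and 3911 with median centring. The 12 Hippo calls became 19 with DESeq2 and 7 at a fold change of 2, and 8 to 11 without a library. The 14 target gene calls became 5 with the replicate block, 6 at a fold change of 2 and 6 to 9 without a library. The difference of THY1 was 5.60 to 5.92 without a library, 3.61 at an offset of 5 RPM, 8.79 at 0.1 RPM and 10.7 in DESeq2. VGLL1 kept its sign throughout, with differences from 4.97 at an offset of 5 RPM to 10.2 in DESeq2. Both genes were under the floor in HuCCT1/CD90−, so these values depend on the offset. VGLL3 was 0.95 at an offset of 5 RPM. WWTR1 changed sign only where the neighbour median was removed, and TEAD4, near 0, ranged from -0.030 to 0.14. VGLL3 in HuCCT1/CD90− rests on 16 to 46 reads a library, which limits its value. The cause of each change was not tested.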

Other observations

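VGLL1 and TEAD4 are both known from the trophectoderm, so 9 further factors of that tissue were looked at in the same fit. TFAP2A fell from 150 ± 11.3 to 55.1 ± 2.58 RPM (SD, n = 3 each, adjusted p = 0.0010, limma) and TP63 from 5.96 ± 1.75 to 0.404 ± 0.0477 RPM (adjusted p = 0.0053). KLF5, also a factor of gut and biliary epithelium, rose from 92.5 ± 15.0 to 154.5 ± 12.4 RPM (limma adjusted p = 0.033, and 0.11 under the replicate block). GATA3 lay between 7.18 and 7.70 RPM in HuCCT1/CD90−, within the 6.19 to 8.15 RPM of HuCCT1/CD90+. CDX2, ELF5, TFAP2C and EOMES had at most 1 read in any library. GATA2 averaged 0.104 RPM without CD90 and 0.444 RPM with it, and its libraries overlapped. Of the 9, 5 had more than 3 reads in a library, and 1 was called higher and 2 lower, or 0 and 2 under the replicate block. Among all genes with that many reads 22.3% were called.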
